A study of Sus scrofa with 8 samples.

Results

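The genes described here carry glucose through the heart cell: glucose transporters, the enzymes of glycolysis, lactate dehydrogenase and the lactate transporters, the enzymes that make and break glycogen, and the pyruvate dehydrogenase complex with the kinases and the phosphatase that switch it. They were taken by symbol from a table of expression values. Of 45 symbols looked up, 41 were found, and they cover 44 of the 18975 genes listed, because SLC2A1, SLC2A4 and PGK1 are listed 2 times each. ALDOA and PKM2 had no entry under those symbols, and PHKA1 and PHKB were matched only by gene ID and are not among the 44. A filter of at least 1 FPKM in at least 2 libraries left 40 entries with 38 symbols. PFKFB1, PFKFB3, ENO2 and a second PGK1 entry did not pass it, and their highest values were 0.295, 1.43, 0.566 and 0.479 FPKM. FPKM is the number of fragments of a transcript scaled to its length and to the mapped fragments of the library.

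Heart RNA was sequenced from male Tibetan and Yorkshire pigs 6 months old. The groups were Tibetan pigs raised at highland (TH) and at lowland (TL), and Yorkshire pigs raised at highland (YH) and at lowland (YL), with 2 libraries per group. The labels name no treatment. Because RNA of several pigs was pooled for each library, errors here are errors of pools and not of animals. The study set out to find genes that differ with breed and with altitude. The descriptions of YL1 and YL2 point to a file named for TL, while their titles, breed and source give YL, and they were taken as YL.

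As background, glucose enters heart muscle through SLC2A1 and the insulin-responsive SLC2A4, is trapped by hexokinase, and is either stored as glycogen or committed to glycolysis by phosphofructokinase. Pyruvate is then reduced to lactate or enters the mitochondrion, where the pyruvate dehydrogenase complex turns it into acetyl-CoA. Pyruvate dehydrogenase kinases (PDK1 to PDK4) phosphorylate the complex and shut it, which spares glucose when fatty acids are burned, and the phosphatase PDP1 opens it again. The adult heart burns mainly fatty acids and takes up lactate, and its lactate dehydrogenase is mostly the LDHB form.

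Between 15687144 and 26721951 reads per library fell on genes, as derived from the scaled read values. Mitochondrial genes held between 57.7% and 87.6% of the summed FPKM, with the highest share in TH1. TH1 and YL2 held the lowest value most often of the 8 libraries, TH1 for 25.8% of all genes tested and YL2 for 22.5%. The same libraries also held the highest value most often, TH1 for 24.96% of all genes tested and YL2 for 24.73%. TH1 was also far from TH2 in some markers, such as VWF (1.06 against 22.8 FPKM) and COL3A1 (18.2 against 172 FPKM). YL2 stood apart from the other 7 libraries by correlation: its correlations with them on the log2(FPKM + 1) scale, across genes, lay between 0.839 and 0.870. The 6 markers of heart muscle that passed the filter were present in every library, with TNNI3 at 4597 FPKM or more, but MYH6 was at 2.60 FPKM in YL2 and at 20.7 and 18.4 FPKM in TH, beside 75.1 to 246 FPKM in the other 5 libraries. ACTC1, of the same list, was higher in TH (2717 and 2039 FPKM) than in YH (838.5 and 1276 FPKM). A list of kidney genes summed to 4574 FPKM in YL2 and to between 0.391 and 17.2 FPKM in the others, with UMOD at 947 FPKM in YL2 and at 0.811 FPKM or less elsewhere. YL2 is therefore a library labelled heart with kidney transcripts. For the entries that passed the filter, the summaries of the comparisons with YL are given with and without it, apart from counts of isoform shares. In TH, 3 of 4 atrial markers were higher than in YH with no overlap and by more than 1 on the log2(FPKM + 1) scale. NPPA was at 2263 and 2146 FPKM in TH and between 23.1 and 108 FPKM elsewhere, and MYL7 and SLN were also higher. MYL4 was higher by 0.85 with no overlap, but lower in TH (7.59 and 6.73 FPKM) than in TL (8.85 and 21.5 FPKM). IRX4, the only ventricular marker that passed the filter, was at 21.1 and 12.0 FPKM in TH. It was at 11.4 and 12.0 FPKM in YH and at 9.37 and 9.02 FPKM in TL. The summed FPKM of the 4 atrial markers was 6611 in TH1 and 5376 in TH2, and between 389 (YL2) and 2608 (YL1) in the other 6 libraries. The haemoglobin genes were also highest in TH1, with HBA at 1376 FPKM there and at 231 FPKM in YL2. Further markers differed between TH and YH with no overlap and by more than 1 on the log2 scale. Higher in TH were TAGLN and CNN1 (smooth muscle), COL1A2 (fibroblast), ACTC1 (heart muscle), ACTA1 (skeletal muscle list), HBA and HBB. Lower in TH were MYH6 (heart muscle), CKM (skeletal muscle list), VWF (endothelium), PTPRC and CD3E (leukocytes). The lists did not move as one: with no overlap but within 1, MYH11 of smooth muscle (-0.88) and DCN of fibroblasts (-0.72) were lower in TH, and PECAM1 of endothelium (0.56) and ACTA2 of smooth muscle (0.52) were higher. Against TL, with no overlap and by more than 1 on the log2 scale, NPPA, MYL7, SLN, CNN1 and ACTA1 were higher in TH. MYH6, ACTC1, CKM, MYH11 and DCN were lower in TH than in TL by the same rule. The part of these differences in the results for TH and YL was not tested. In RNA of whole tissue, fewer cells of a type and less RNA per cell cannot be told apart.

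**Figure D1:**
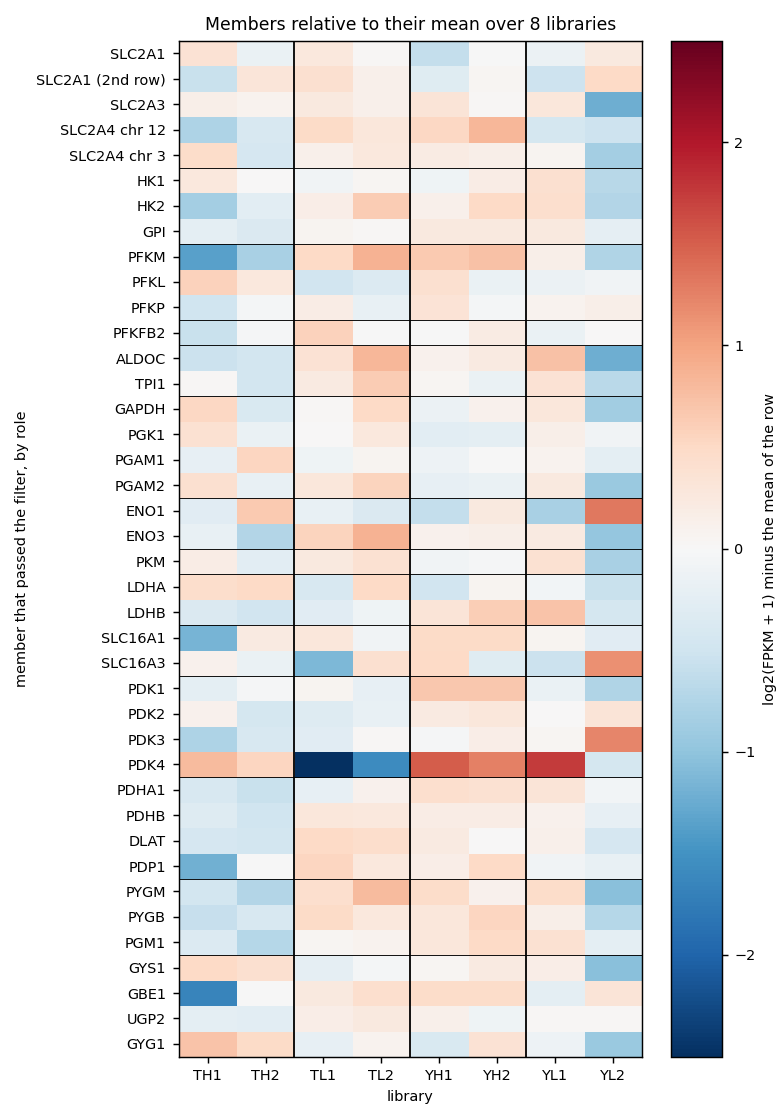
Level of each of the 40 entries that passed the filter (rows, ordered by role) in each of the 8 libraries (columns), as log2(FPKM + 1) minus the mean of the row. PFKM, the pyruvate dehydrogenase genes and the glycogen breakdown genes are low in both TH libraries, PDK4 is low in both TL libraries, and YL2 is the lowest library for 16 of the 40.

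Highland Tibetan hearts read lower than highland Yorkshire hearts for PFKM, the muscle phosphofructokinase, for glycogen breakdown and for the pyruvate dehydrogenase complex, but no gene passed the test. The other 2 phosphofructokinase genes, PFKL and PFKP, overlapped between the groups. In both TH libraries 22 of the 40 entries were below both YH libraries (27.3% of all genes tested did the same), and 4 were above both (PGK1, LDHA, GYS1 and GYG1, against 25.2% of all genes). All 3 glycogen breakdown genes, all 4 genes of the pyruvate dehydrogenase complex and its phosphatase and all 4 PDKs had lower mean log2 values in TH. The median log2 fold change of TH to YH was -0.42 over the 40 entries and -0.03 over all genes, with 12 of the 40 above 0 (47.5% of all genes). Without TH1 the median was -0.38. With each library scaled to the FPKM sum of all genes 0 of the 40 were above 0. The 4 entries above both YH libraries thus turned as well. That scaling moved all genes to a median of -0.74, and these 4 stayed above it. Of the 40, 9 lay above the median of all genes, beside 13 without the scaling. By limma 0 of 40 were called (Benjamini-Hochberg adjusted p under 0.01, and more than 1 apart on the log2 scale), beside 0.0336% of all genes. At an adjusted p under 0.05 the counts were 0 of 40 and 0.26% of all genes. At an unadjusted p under 0.05, 9 of 40 entries were lower in TH (8.47% of all genes) and 0 were higher (7.71%). SLC2A4 on chromosome 12, PFKM and GBE1 were lower by more than 1 on the log2 scale with no overlap, which makes 3 of 40 beside 4.91% of all genes, and 0 were higher (3.79%). Of these, SLC2A4 on chromosome 12 and PFKM had an unadjusted p under 0.01 (2.06% of all genes lower, 2.01% higher).

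Between Tibetan pigs, the highland hearts were again the lower side for most of these genes. In TH to TL, 20 entries were lower with no overlap of the libraries (24.5% of all genes) and PFKL, PDK4, GYS1 and GYG1 were higher (24% of all genes). The median log2 fold change was -0.35 over the 40 and -0.02 over all genes, with 10 of the 40 above 0 (48.0% of all genes), and it was -0.33 without TH1. By limma 0 were called (0.0504% of all genes) and 0 had an adjusted p under 0.05 (0.101%), and at an unadjusted p under 0.05 there were 8 lower (5.53% of all genes) and 2 higher (5.81%). With no overlap and more than 1 apart on the log2 scale, PFKM, ALDOC, ENO3, PYGM and GBE1 were lower (2.92% of all genes) and PDK4 was higher (2.85%). GBE1 is in this count through TH1, without which its log2 fold change was -0.34. At that size PFKM and PDK4 had an unadjusted p under 0.01 (1.24% of all genes lower, 1.33% higher). The comparisons TH to YH and TH to TL share the 2 TH libraries.

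At lowland, the Tibetan hearts were higher than the Yorkshire hearts for 31 of the 40 (51.6% of all genes), with a median log2 fold change of TL to YL of 0.31 (0.02 over all genes), but this rested on YL2. Without YL2 the median was 0.06 (0.05 over all genes) and 22 of the 40 were higher (55.6% of all genes). With all libraries, 10 entries were higher in TL with no overlap (23.8% of all genes) and PFKL, PDK2, PDK3 and PDK4 were lower (17.8%). Only ENO3 (higher, 2.85% of all genes) and PDK4 (lower, 2.42%) also differed by more than 1 on the log2 scale. Without YL2, 15 entries were higher (45.7% of all genes) and 12 lower (35.5%) with no overlap, and PDK4 alone differed by more than 1 (2.69% of all genes lower). By limma 0 of 40 were called, and 0 had an adjusted p under 0.05 (0.00839% of all genes in each case). At an unadjusted p under 0.05 the counts were 4 higher (5.9% of all genes) and 1 lower (3.04%), and PDK4 was also under 0.01 (0.63% of all genes lower and 1.4% higher at that size). In limma without YL2, 0 of 40 were called or had an adjusted p under 0.05 (0.0252% and 0.0672% of all genes), and at an unadjusted p under 0.05, SLC2A4 on chromosome 12 was higher (5.83%) and LDHB and PDK4 were lower (3.89%).

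In Yorkshire pigs, most of these genes read higher at highland with both YL libraries, and about as many higher as lower with YL1 alone. The median log2 fold change of YH to YL was 0.27 with both YL libraries (0.03 over all genes) and 0.01 with YL1 alone (0.06 over all genes), with 33 and 21 of the 40 higher in YH (54.0% and 56.9% of all genes). SLC2A4 on chromosome 12 and PDK1 were higher in YH with no overlap and by more than 1 on the log2 scale (2.24% of all genes), and with YL1 alone SLC2A4 on chromosome 12 was (2.2% of all genes). By limma 0 of 40 were called at either adjusted threshold (0.0% of all genes at each), and at an unadjusted p under 0.05, 3 were higher (4.39%) and 0 were lower (1.58%), of which SLC2A4 on chromosome 12 and PDK1 were also under 0.01 (0.604% of all genes higher and 0.235% lower at that size). Lower in YH with no overlap was PGK1 (14.4% of all genes), and 10 entries were higher (21.9%). With YL1 alone, 15 entries were higher in YH with no overlap (43.6% of all genes) and 12 were lower (31.4%). In limma without YL2, 0 of 40 were called or had an adjusted p under 0.05 (0.0% and 0.00839% of all genes), and at an unadjusted p under 0.05, 2 were higher (3.41%) and 0 were lower (2.04%).

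**Figure D2:**
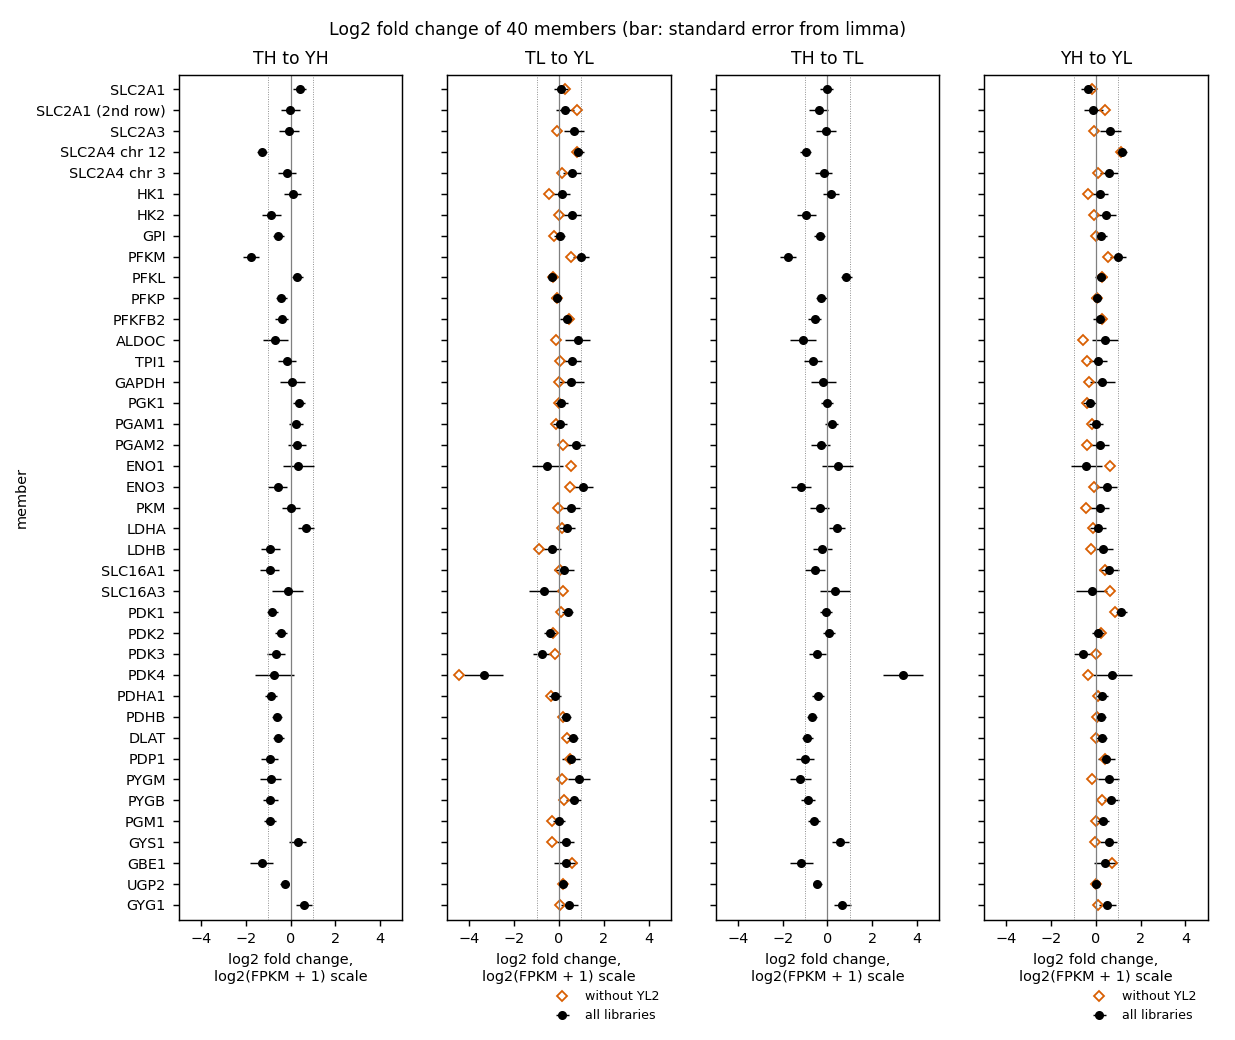
Log2 fold change of each of the 40 entries on the log2(FPKM + 1) scale in the 4 comparisons, with the standard error from limma as a bar and dotted lines at -1 and 1. Open diamonds leave out YL2. In TH to YH and TH to TL most points lie left of 0, PFKM at -1.77 in both, and the shift to the right in the comparisons with YL goes with YL2.

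Among the glucose transporters, the neuronal-type SLC2A3 was the highest by FPKM. It read 92.4 FPKM in TH1 and 88.8 in TH2, 99.3 and 91.3 in TL1 and TL2, 104.5 and 85.6 in YH1 and YH2, and 101.4 and 35.4 in YL1 and YL2, so 7 libraries were close and each was more than 2 times YL2. SLC2A4 has an entry on chromosome 3 (139903945 to 139910176 of Sscrofa10.2) and one on chromosome 12 (54811259 to 54816695). The reference table of Sscrofa11.1 lists 1 SLC2A4, and how reads were split between both entries cannot be told. The chromosome 12 entry read 1.28 FPKM in TH1 and 1.97 in TH2, 4.49 and 3.80 in TL1 and TL2, 4.58 and 5.99 in YH1 and YH2, and 1.90 and 1.75 in YL1 and YL2, from 36 to 253 reads. TH and YL did not overlap with TL or YH. Its log2 fold change was -1.26 ± 0.23 (SE) in TH to YH (limma, adjusted p = 0.096) and 1.15 ± 0.23 in YH to YL (adjusted p = 0.582), or 1.11 ± 0.28 without YL2 (adjusted p = 0.512). The chromosome 3 entry held far more RNA, 27.8 to 70.8 FPKM, and overlapped between TH and YH. Both SLC2A1 entries on chromosome 6 stayed between 3.71 and 11.9 FPKM.

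HK1 was the main hexokinase at 60.7 to 132 FPKM. HK2, the insulin-regulated form, was at 0.115 to 2.1 FPKM, and both TH libraries were below both libraries of TL and of YH. GPI, which turns glucose-6-phosphate into fructose-6-phosphate, read 132 FPKM in TH1 and 123 in TH2, 165 and 159.9 in TL1 and TL2, 188 and 186 in YH1 and YH2, and 187 and 136 in YL1 and YL2. TH was the lowest group without overlap against TL and YH, with a log2 fold change of -0.55 ± 0.24 in TH to YH (limma, adjusted p = 0.326).

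PFKM, the muscle form of the enzyme that commits glucose to glycolysis (chromosome 5, 81676290 to 81694184), had the log2 fold changes of largest size among the glycolytic enzymes on the log2(FPKM + 1) scale in TH to YH and TH to TL. HK2, at far lower levels, had smaller ratios of mean FPKM (0.264 and 0.235). PFKM read 82.1 FPKM in TH1 and 120.0 in TH2, 299 and 387 in TL1 and TL2, and 330.2 and 350.0 in YH1 and YH2. In YL1 and YL2 it read 235 and 125 FPKM. Its reads per library ran from 3187 to 20768. Both TH libraries lay below the other 6, and YL2 was only slightly above TH2. The mean FPKM of TH was 0.297 of that of YH and 0.295 of that of TL. On the log2 scale both differences were -1.77 ± 0.37 (SE), with limma adjusted p = 0.118 for TH to YH and 0.203 for TH to TL. Over all alternatives the TH to YH difference stayed between -2.74 and -1.50 and its limma adjusted p between 0.0233 and 0.558, with an adjusted p in limma under 0.05 when either YL library was left out (0.0481 without YL2). The liver form PFKL, at 32.8 FPKM or more in TH and 21.1 or less in TL, was higher in TH than in TL, with no overlap. PFKP was at 7.92 to 14.8 FPKM. PFKFB2, the heart form of the enzyme that makes and removes the PFK activator fructose-2,6-bisphosphate, read 2.56 FPKM in TH1 and 4.09 in TH2, 6.76 and 4.15 in TL1 and TL2, 4.16 and 5.01 in YH1 and YH2, and 3.65 and 4.26 in YL1 and YL2.

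**Figure D3:**
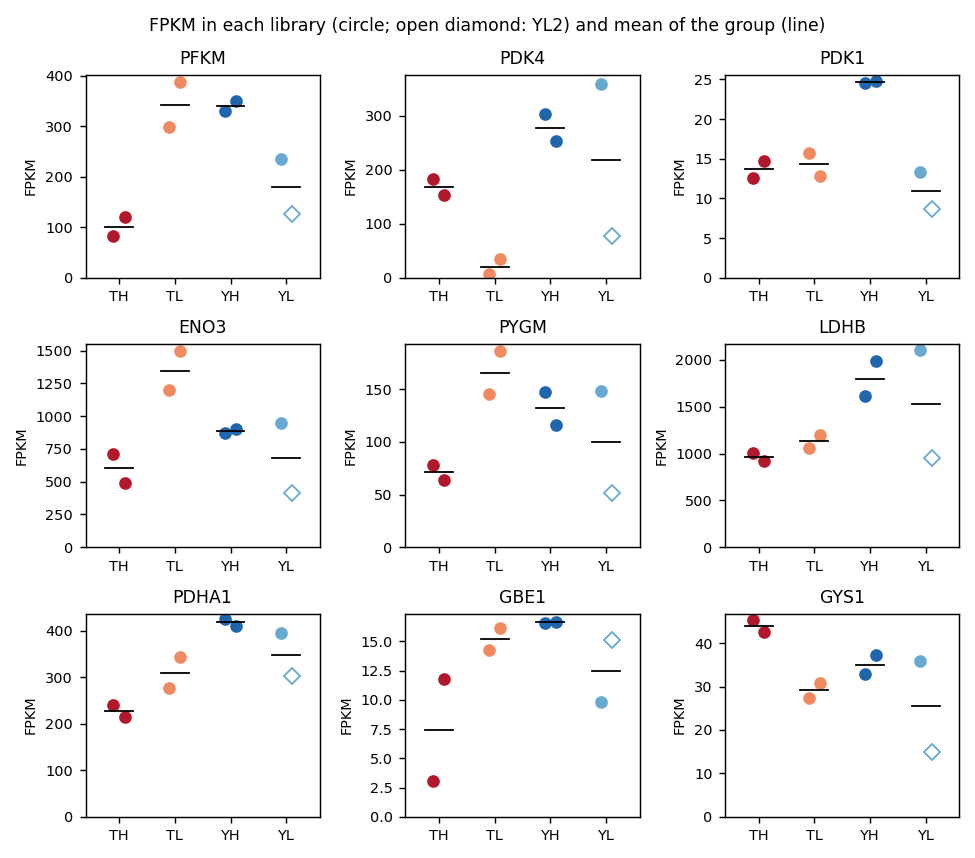
FPKM (linear axis from 0) of 9 genes in each library, with circles for libraries, an open diamond for YL2 and a line at the mean of each group. PFKM is at 82.1 and 120.0 FPKM in TH and at 125 FPKM or more in the other libraries, PDK4 is at 6.5 and 34.7 FPKM in TL, and PDK1 is at 24.5 and 24.8 FPKM in YH.

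Further along glycolysis the groups were closer. GAPDH, the most abundant of the 44, read 9930 FPKM in TH1 and 5351 in TH2, 7085 and 9815 in TL1 and TL2, 6266 and 7571 in YH1 and YH2, and 8467 and 3808 in YL1 and YL2, with overlap in every comparison. Its listed interval on chromosome 5 (66427503 to 66551473) overlaps 8 other listed genes, none above 24.2 FPKM. TPI1, the triose phosphate isomerase, read 370 FPKM in TH1 and 264 in TH2, 426 and 563 in TL1 and TL2, 379 and 323 in YH1 and YH2, and 468 and 229 in YL1 and YL2. PKM, the pyruvate kinase, read 458 FPKM in TH1 and 333 in TH2, 475 and 525 in TL1 and TL2, 378 and 395 in YH1 and YH2, and 519.8 and 227 in YL1 and YL2. TH lay below TL without overlap for TPI1 and PKM, and both highland groups overlapped. PGK1 (169 to 265 FPKM), PGAM1 (133 to 229), PGAM2 (136 to 383) and ENO1 (18.8 to 85.1) stayed within 1 on the log2 scale in every comparison of all libraries. For ENO1 and PGAM2 this rests on both YL libraries: ENO1 was at 18.8 FPKM in YL1 and 85.1 in YL2, and its log2 fold change of TL to YL was -0.53 with both, 0.53 without YL2 and -1.59 without YL1. That of PGAM2 was 0.76, 0.18 without YL2 and 1.35 without YL1.

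ENO3 and ALDOC followed the order of PFKM in part. ENO3, the muscle enolase, read 713 FPKM in TH1 and 492 in TH2, 1198 and 1496 in TL1 and TL2, 873 and 899 in YH1 and YH2, and 949 and 416 in YL1 and YL2. TL was the highest group, above all other libraries, and TH lay below YH. The log2 fold change of TH to TL was -1.18 ± 0.44 (limma, adjusted p = 0.385), and that of TL to YL was 1.09 ± 0.44 with YL2 (adjusted p = 0.532) and 0.50 without it. ALDOC, an aldolase, read 7.16 FPKM in TH1 and 7.61 in TH2, 14.2 and 20.01 in TL1 and TL2, 11.8 and 12.9 in YH1 and YH2, and 18.7 and 4.10 in YL1 and YL2. Its log2 fold change was -1.09 ± 0.57 in TH to TL (limma, adjusted p = 0.516).

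LDHB, the form that favours the oxidation of lactate, read 1004 FPKM in TH1 and 919 in TH2, 1061 and 1203 in TL1 and TL2, 1614 and 1984 in YH1 and YH2, and 2110 and 956 in YL1 and YL2. Tibetan libraries and YL2 lay between 919 and 1203 FPKM, and YH and YL1 lay above. The log2 fold change of TH to YH was -0.90 ± 0.42 (limma, adjusted p = 0.355), and that of TL to YL was -0.90 without YL2 and -0.33 with it. LDHA, the form that favours lactate production, was at 27.2 to 58.2 FPKM and was higher in TH than in YH with no overlap. Its sign turned when each library was scaled to the FPKM sum of all genes (0.68 against -0.28 on the log2 scale). That scaling moved the median of all genes to -0.74, and LDHA stayed above it. SLC16A1, the main lactate transporter of the heart, read 17.1 FPKM in TH1 and 46.2 in TH2, 48.3 and 36.7 in TL1 and TL2, 55.2 and 54.8 in YH1 and YH2, and 41.1 and 32.1 in YL1 and YL2, so YH was above TH and YL. SLC16A3 was at 1.71 to 12.0 FPKM, highest in YL2.

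PDK4, the pyruvate dehydrogenase kinase that fasting and fatty acids induce (chromosome 9, 82625076 to 82638263), had the largest log2 fold change of the 40. It read 183 FPKM in TH1 and 154 in TH2, 6.5 and 34.7 in TL1 and TL2, 303 and 253 in YH1 and YH2, and 359 and 77.7 in YL1 and YL2, from 425 to 19194 reads per library. TL held the lowest values in both libraries, TL1 below TL2, and YL2 was the next lowest. The log2 fold change of TH to TL was 3.37 ± 0.88 (limma, adjusted p = 0.261), 2.24 without TL1 and 4.49 without TL2, and that of TL to YL was -3.36 ± 0.88 (adjusted p = 0.322), or -4.46 without YL2 (adjusted p = 0.178). When each library was scaled to the FPKM sum of all genes the TL to YL difference was called by limma at -3.69 (adjusted p = 0.000231), and with the sum without mitochondrial genes its adjusted p was 0.0361 and that of TH to TL was 0.0266. Over all alternatives the TL to YL difference was between -4.49 and -2.24.

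The other PDKs had patterns of their own. PDK1, a HIF-1 target, read 12.5 FPKM in TH1 and 14.8 in TH2, 15.8 and 12.9 in TL1 and TL2, 24.5 and 24.8 in YH1 and YH2, and 13.3 and 8.61 in YL1 and YL2, so YH alone was high. The log2 fold change of YH to YL was 1.13 ± 0.25 (limma, adjusted p = 0.624) and 0.85 without YL2 (adjusted p = 0.604), and that of TH to YH was -0.81 ± 0.25 (adjusted p = 0.216). PDK3 read 2.60 FPKM in TH1 and 3.66 in TH2, 4.04 and 5.24 in TL1 and TL2, 4.99 and 5.85 in YH1 and YH2, and 5.33 and 13.4 in YL1 and YL2, with YL2 more than 2 times every other library. PDK2 stayed between 82.1 and 139.8 FPKM.

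The genes of the enzyme that the kinases switch, and of its phosphatase, were below TL and YH in both TH libraries. PDHA1, the catalytic subunit that the PDKs phosphorylate, read 239.7 FPKM in TH1 and 214 in TH2, 276 and 342 in TL1 and TL2, 426 and 411 in YH1 and YH2, and 396 and 302 in YL1 and YL2. TH was below all other libraries, with a log2 fold change of -0.88 ± 0.26 in TH to YH (limma, adjusted p = 0.199) and -0.44 ± 0.26 in TH to TL (adjusted p = 0.577). PDHB was at 92.4 to 104 FPKM in TH and at 113 to 159 FPKM elsewhere. DLAT, the acetyltransferase core, was at 38.8 and 40.2 FPKM in TH and at 40.03 to 76.6 FPKM elsewhere, where the lowest was YL2, between both TH libraries. PDP1 read 1.11 FPKM in TH1 and 3.82 in TH2, 6.03 and 4.79 in TL1 and TL2, 4.43 and 5.78 in YH1 and YH2, and 3.54 and 3.23 in YL1 and YL2, so that YL lay between both TH libraries. Its log2 fold change of TH to YH was -0.93, and -0.33 without TH1. The direction of TH to YH and TH to TL was negative for these 4 genes under every scaling used.

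The 3 genes of glycogen breakdown were below TL and YH in both TH libraries, while those of synthesis were mixed. PYGB, the phosphorylase of brain and heart, listed on the unplaced scaffold GL896323.1, read 129.6 FPKM in TH1 and 146 in TH2, 272 and 232 in TL1 and TL2, 235 and 282 in YH1 and YH2, and 214 and 118 in YL1 and YL2. TH lay below TL, YH and YL1, and YL2 was the lowest of all. PYGM, the muscle phosphorylase, read 78.1 FPKM in TH1 and 64.1 in TH2, 145 and 186 in TL1 and TL2, 148 and 116 in YH1 and YH2, and 148 and 52.0 in YL1 and YL2, with the same order. The log2 fold change of PYGM was -1.21 ± 0.47 in TH to TL (limma, adjusted p = 0.409), and that of PYGB was -0.90 ± 0.33 in TH to YH (adjusted p = 0.26). PGM1, which joins glycogen to glycolysis, was at 47.7 to 112 FPKM, and its log2 fold change of TH to YH was -0.92 ± 0.28 (limma, adjusted p = 0.204).

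On the side of synthesis, GYG1, the primer protein glycogenin, read 291 FPKM in TH1 and 244 in TH2, 152 and 188 in TL1 and TL2, 134 and 228 in YH1 and YH2, and 162 and 92.1 in YL1 and YL2, so TH was the highest group. GYS1, the muscle glycogen synthase, was at 42.5 and 45.3 FPKM in TH and at 14.9 to 37.2 FPKM elsewhere. The higher level of GYG1 and GYS1 in TH than in YH held in FPKM as deposited (log2 fold changes 0.60 and 0.32). It turned when scaled to the FPKM sum of all genes (-0.38 and -0.64), as did GYS1 in TH to TL (0.58 against -0.03). That scaling moved the median of all genes to -0.74 in TH to YH and -0.44 in TH to TL, and these values stayed above it. GYS1 overlaps FTL on the genome, which reached 4404 FPKM, and the strand of counting is not stated. GBE1, the branching enzyme, read 3.09 FPKM in TH1 and 11.8 in TH2, 14.3 and 16.2 in TL1 and TL2, 16.6 and 16.7 in YH1 and YH2, and 9.86 and 15.1 in YL1 and YL2, from 50 to 352 reads. Its log2 fold change of TH to YH was -1.29 ± 0.51 (limma, adjusted p = 0.288), and it rests on TH1: with TH1 left out it was -0.46. UGP2 was at 17.4 to 24.9 FPKM.

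Within families of isoforms the share of each form does not depend on the scaling of a library. PFKM made 62.6% (TH1) and 73.2% (TH2) of the FPKM of PFKM, PFKL and PFKP, with 90.2% and 92.6% in TL1 and TL2, 86.7% and 90.9% in YH1 and YH2, and 86.5% and 76.6% in YL1 and YL2. TH was the lowest group, with a mean of 67.9% ± 7.5 (SD, n = 2) beside 88.8% ± 2.99 in YH. PDK4 made 57.4% (TH1) and 60.5% (TH2) of the FPKM of the 4 PDKs, with 5.61% and 22.8% in TL1 and TL2, 65.3% and 60.1% in YH1 and YH2, and 73.1% and 32.4% in YL1 and YL2. LDHB made 94.0% or more of LDHA and LDHB in every library, and 98.2% and 97.9% in YH against 94.8% and 94.0% in TH. Of 9 shares, 5 had no overlap in TH to TL and 3 in TH to YH. With both YL libraries the counts were also 5 in TL to YL and 3 in YH to YL. These counts have no share over other genes beside them. An exact two-sided permutation test of 2 libraries against 2 cannot go below p = 0.333, the value of each share with no overlap.

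**Figure D4:**
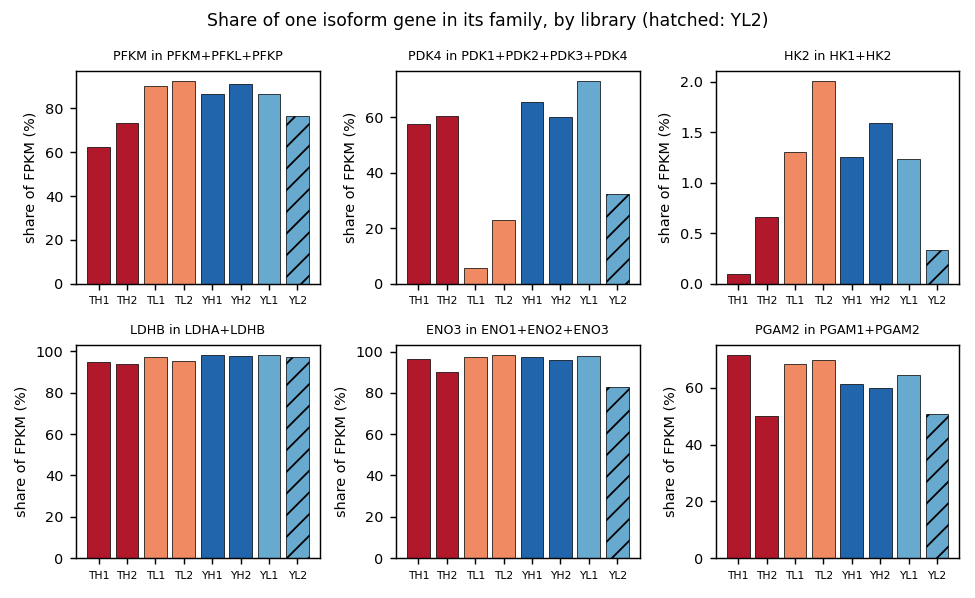
Share (percent of FPKM) of 1 gene within its family of isoforms in each library, for 6 families, on axes from 0 that differ between panels, with YL2 hatched. The share of PFKM is 62.6% and 73.2% in TH and 76.6% or more elsewhere, and that of PDK4 is 5.61% and 22.8% in TL.

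As a whole the 44 entries took 1.94% (TH1) and 1.83% (TH2) of the reads outside the mitochondrial genome, with 2.65% and 2.94% in TL1 and TL2, 2.78% and 2.72% in YH1 and YH2, and 2.87% and 1.69% in YL1 and YL2. Both TH libraries and YL2 were below 2%, with values of 1.36%, 1.46% and 1.38% when GAPDH was left out, against 2.11% or more in the other 5. These shares count reads and are not per length.

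**Figure D5:**
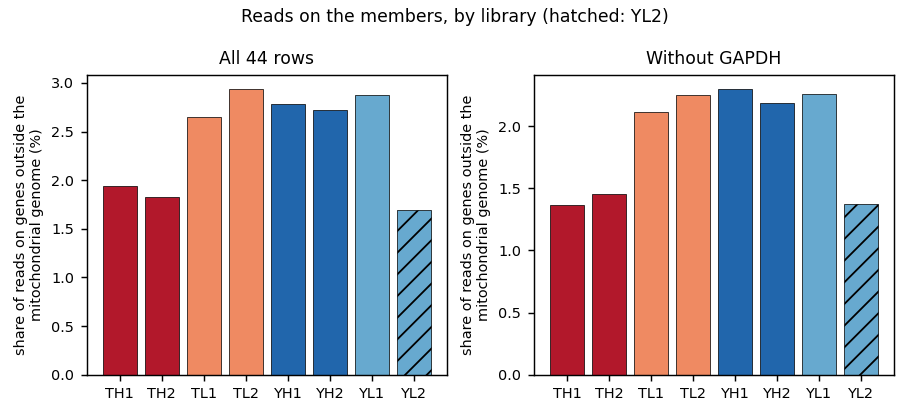
Share of the reads on genes outside the mitochondrial genome that fell on the 44 entries (left) and on all but GAPDH (right), in percent, by library, with YL2 hatched. TH1, TH2 and YL2 are at 1.94%, 1.83% and 1.69%, and the other 5 libraries are at 2.65% or more.

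Whether the altitude difference itself differs between the breeds was tested as TH to TL minus YH to YL. None of the 40 was called by limma (0.0336% of all genes) or passed an adjusted p of 0.05 (0.042%), and at an unadjusted p under 0.05, 9 were lower (7.16% of all genes) and 0 were higher (3.78%). Over 1 in size and under an unadjusted p of 0.01 were PFKM and SLC2A4 on chromosome 12 (2.11% of all genes lower, 0.739% higher). Without YL2, 0 of 40 were called (0.0588% of all genes) or had an adjusted p under 0.05 (0.0923%), and at an unadjusted p under 0.05, 7 were lower (7.95%) and PDK4 was higher (4.89%). PFKM and SLC2A4 on chromosome 12 were again those over 1 in size and under 0.01 (2.3% of all genes lower, 1.33% higher). The median interaction of the 40 was -0.57 with YL2 and -0.34 without it, with 11 and 14 of the 40 above 0 (49.5% and 45.5% of all genes). Without YL1 the median interaction was -1.05. The interaction of ALDOC went from -1.51 to -0.53 without YL2. PFKM had an interaction of -2.75 ± 0.52 on the log2 scale (limma, adjusted p = 0.248), with TH below TL and YH above YL, and -2.30 ± 0.42 without YL2 (adjusted p = 0.199). The interaction of SLC2A4 on chromosome 12 was -2.13 ± 0.33 (limma, adjusted p = 0.198), and -2.09 ± 0.36 without YL2 (adjusted p = 0.183).

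Other genes of the same pathways gave 40 entries that passed the filter: other isozymes and regulators, other glycogen genes, other genes of pyruvate and lactate handling, other glucose transporters and gluconeogenesis. By limma 0 of these 40 were called or had an adjusted p under 0.05 in any of the 4 comparisons, and their median log2 fold change was -0.18 in TH to YH and -0.22 in TH to TL. With no overlap and more than 1 apart on the log2 scale, LDHD, PDPR and TBC1D4 were lower in TH than in YH. PDPR, a regulatory subunit of the phosphatase that opens the complex, in 1 of its 2 entries read 1.75 FPKM in TH1 and 3.81 in TH2, beside 9.15 in YH1 and 7.98 in YH2. In TL, PPP1R3C, which targets a phosphatase to glycogen, reached 288 FPKM in TL1 and 249 in TL2, above 104 in YL1 and 87.3 in YL2 (log2 fold change 1.48 ± 0.23, limma adjusted p = 0.160). PPP1R3A, a protein of the same family, reached 6.78 FPKM in TL1 and 9.47 in TL2, above 3.92 in YL1 and 1.79 in YL2. In TH to TL, HK3 and GSK3B were higher and LDHD and PPP1R3A were lower by this rule. In YH to YL, PPP1R3A was higher (7.69 FPKM in YH1 and 5.69 in YH2), and PC and FBP1 were lower through YL2. YL2 also widened the differences of PPP1R3A from YL, as it read 1.79 FPKM there and 3.92 in YL1.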

How the data were processed

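Heart RNA of 8 libraries (2 per group) was read from the single table that covers the whole series. The authors aligned reads to Sscrofa10.2 with TopHat2 2.0.9 and Bowtie 0.12.5 (submitters' processing notes) and deposited FPKM per library, together with a signal that is the read number of each gene scaled by 1 factor per library. Group means and ratios in the same table hold the authors' own comparisons and were not used, nor was DESeq 1.10.1, which the notes name. Depth was derived from the signal: 99.7% or more of its low values (under 100 steps) lie within 0.02 of a whole multiple of the smallest step of their library. The few values below the step kept it from being used as counts, so no count test was run.

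The comparisons used limma 3.58.1 under R 4.3.3 (trend on the mean) with log2(FPKM + 1) of the 8 libraries in 1 fit. The filter (1 FPKM or more, 2 libraries or more) left 11913 genes, over which p-values were adjusted by Benjamini-Hochberg. The pseudocount shrinks the fold changes of low genes. A call needed adjusted p below 0.01 together with a log2 difference above 1 in either direction. The name TH to YH means TH minus YH on the log2 scale, and the others likewise. Per-library values were given for the highest member of each role, for members with no overlap and a log2 fold change over 1, for any member with an adjusted p under 0.05, and for those more than 2 times higher in YL2, or below the inverse of that, than in every other library. PFKL, PDHB, DLAT, PDP1 and GYS1 were added after their values were seen. The members, the lists and the rules were chosen with earlier results of these data known. The study's methods call the pools of a group biological replicates. Replicate numbers were checked for pairing and do not pair the libraries (correlations of same-numbered deviations between -0.0844 and 0.118). Some results of other pathway genes are not reported here. For 14256 genes the table gives the symbol, and 1025 more were named through a reference table. On simulated data with 100 genes changed by each size in TH to YH (11913 genes), limma called 37% at a log2 fold change of 2 and 59% at 3. Summaries and plots were drawn under Python 3.11.15 (matplotlib 3.10.9, scipy 1.17.1, pandas 2.3.3, numpy 2.4.6).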

Additional observations from a re-analysis of the deposited data

How the results depend on the processing

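Of the values of single genes under the alternatives, 3519 stayed on their side of the threshold, and 1 became a call (PDK4, TL to YL, scaled to the FPKM sum of all genes, which makes 1 member called there). That scaling moved the median of all genes to -0.74 in TH to YH, -0.44 in TH to TL and -0.28 in TL to YL, and the median of the members to -1.22, -0.90 and -0.0122. Members lower in TH than in YH with no overlap and a log2 fold change over 1 were 3, and 7 with the authors' scaled reads (an alternative chosen after seeing the data), 9 with median-ratio scaling, 5 with a pseudocount of 0.1, 25 scaled to the FPKM sum of all genes and 7 to the sum without mitochondrial genes. Those lower in TH than in TL were 5, and 8, 8, 8, 13 and 9 under the same settings. Those higher in TL than in YL were 1, and 2 with scaled reads, 2 with a pseudocount of 0.1, 0 with the FPKM sum of all genes and 2 with the sum without mitochondrial genes. Those higher in YH than in YL were 2, and 1 with a mean of at least 10 FPKM. In the main fit the shares of all genes were 4.91%, 2.92%, 2.85% and 2.24%, in the same order. For the other settings, and for the libraries left out below except YL2, shares of all genes are not given. The changes in these counts can thus not be read as particular to the members. Their cause was not tested. Leaving out each library in turn gave 3 to 8 lower in TH to YH (8 without YH1), 4 to 8 lower and 1 to 2 higher in TH to TL, 0 to 12 higher and 1 to 4 lower in TL to YL (12 and 4 without YL1), and 1 to 12 higher and 0 to 3 lower in YH to YL (12 and 3 without YL1). The median of the members ran from 0.06 to 0.53 in TL to YL and from 0.00874 to 0.615 in YH to YL, both highest without YL1. A group left with 1 library was assumed to vary like the others, and no member was called in any of these fits. A replicate block left the members called at 0 in every comparison and changed no other call. The planned count test with edgeR was not run, because the deposited signal could not be used as counts.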

Other observations

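Beside the kidney markers, YL2 held transcripts of the gluconeogenic enzymes. PCK1, which makes phosphoenolpyruvate from oxaloacetate, was at 1499 FPKM in YL2 and at 0.970 FPKM or less in the other 7 libraries. FBP1, fructose-1,6-bisphosphatase, was at 408 FPKM in YL2 and between 1.36 and 3.09 FPKM elsewhere. PC, pyruvate carboxylase, was at 124 FPKM in YL2 and between 1.93 and 3.06 FPKM elsewhere. These genes were chosen after their values were seen.

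PHKA1 and PHKB, subunits of the kinase that activates glycogen phosphorylase, were found by gene ID and are outside the 44 entries. PHKA1 read 6.99 FPKM in TH1 and 8.0 in TH2, 8.56 and 11.1 in TL1 and TL2, 16.7 and 15.8 in YH1 and YH2, and 14.0 and 6.29 in YL1 and YL2. PHKB read 6.18 FPKM in TH1 and 8.61 in TH2, 13.8 and 11.9 in TL1 and TL2, 11.6 and 10.9 in YH1 and YH2, and 9.90 and 8.52 in YL1 and YL2. PHKA1 was lower in TH than in TL and YH with no overlap, as was PHKB.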
